A study of Mus musculus with 9 samples.

Results

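The transcripts of cultured mouse podocytes were compared after 16 hours of thapsigargin and after the vehicle DMSO. Podocytes wrap the glomerular capillaries and form part of the kidney's filter. The comparison takes the 3 arrays whose titles name thapsigargin alone and the 3 whose titles name DMSO, 6 of the 9 arrays of the series, and covers 22180 genes. All cells had first been differentiated for 11 days at 37 °C. The thapsigargin group received 2.5 µM thapsigargin, and the DMSO group received the vehicle, for which the labels give no dose or time. The 3 remaining arrays, from cells given thapsigargin with 10 µM forskolin, entered the fit for its estimate of the spread and are not described. The labels give no cell line or clone, and they name biological replicates without saying what was repeated. The p-values therefore reflect only how far these arrays differ, which may be technical.

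Thapsigargin blocks the SERCA pumps that fill the endoplasmic reticulum (ER) with calcium. Chaperones of the ER need that calcium, and unfolded proteins that gather in its absence are sensed by the kinases PERK and IRE1 and by the membrane-bound factor ATF6. IRE1 splices the Xbp1 transcript, ATF6 is cut to free a transcription factor, and PERK slows translation while favouring that of ATF4, which raises genes of amino acid supply and, through CHOP, of cell death and recovery.

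Values are deposited log2 RMA values, so a difference of 1 is 2-fold, and a change is thapsigargin minus DMSO, given with its limma standard error (±) from 3 arrays per group. A gene was called higher or lower at a limma adjusted p below 0.05 (Benjamini-Hochberg over all 22180 genes), and "rose" and "fell" are used of called genes only. After thapsigargin 4026 genes were higher, 18.2% of those tested, and 3742 were lower, 16.9%, so that 35.0% of all genes were called. At least 2-fold changes were seen for 684 genes upward (3.08%) and 653 downward (2.94%), and 11 genes rose and 19 fell at least 8-fold. Most calls were small: 6431 of them, 82.8%, were below 2-fold. The 3 values of each group did not overlap for 43.9% of genes, called or not. The median change over all genes was -0.039. Genes bright on the array were called more often, with 40% of the brightest 20% higher and 32.9% lower, against 1.49% and 2.55% of the dimmest 20%. With limma's treat, which tests for a change larger than 0.5, 1164 genes were higher and 1077 lower.

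**Figure D1:**
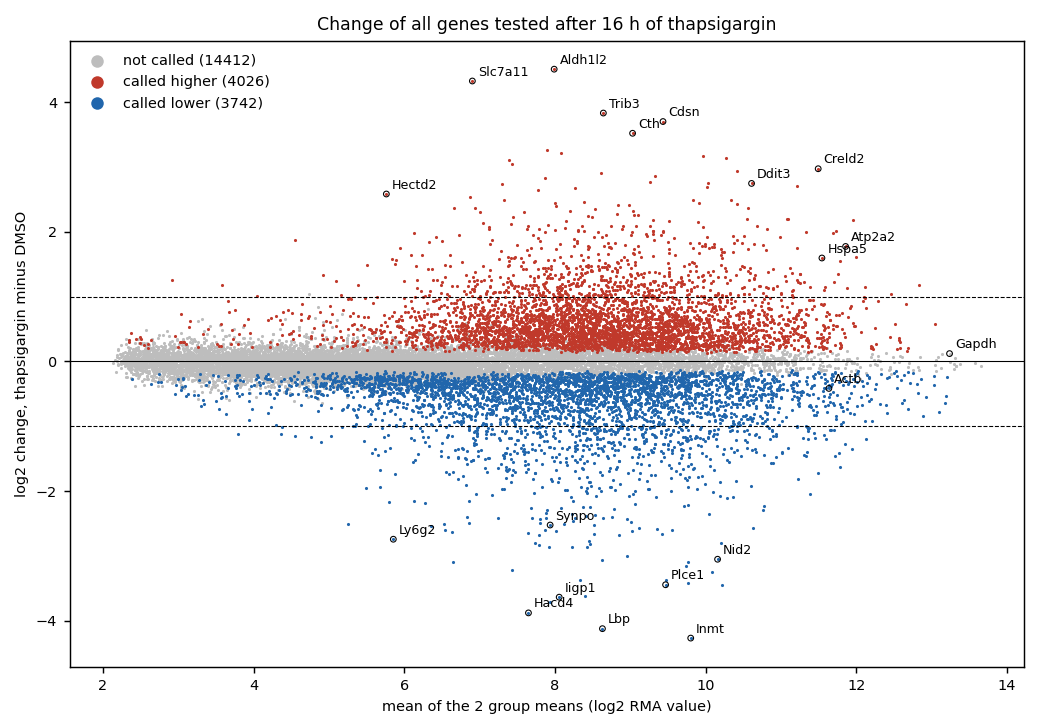
Each point is 1 gene; the horizontal axis is the mean of its DMSO and thapsigargin group means (log2 RMA value) and the vertical axis its log2 change, with dashed lines at 2-fold. Red points (4026) were called higher and blue points (3742) lower; changes reach 4.51 for Aldh1l2 and -4.27 for Inmt, and few dim genes were called.

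The arrays of a group were alike, with Pearson correlations over all probe sets from 0.989 to 0.993 within groups and from 0.970 to 0.977 between them. Array medians lay between 5.84 and 5.88 for DMSO and between 5.80 and 5.83 for thapsigargin (two-sided exact permutation p = 0.1, the lowest value this design allows). The cell type was checked against fixed markers. The 6 podocyte markers tested all lay above the median level of all probe sets, 5.83, in DMSO. Their mean level ran from 9.0 to 9.06 on the DMSO arrays and from 8.37 to 8.39 on the thapsigargin arrays, with 1 of 6 called higher and 4 lower. Markers of other kidney cells were present too. Of 9 tubule markers 7 lay above that median in DMSO and 3 fell (Aqp1, Cdh16 and Lrp2), and their mean level ran from 8.12 to 8.20 with DMSO and from 7.24 to 7.33 with thapsigargin. Of 8 mesangial and pericyte markers 3 fell, and 1 of 6 fibroblast markers, 1 of 8 endothelial and 1 of 8 macrophage and leukocyte markers did, and no marker of these other cell types rose. Above that median in DMSO lay 5 of 8 mesangial, 3 of 6 fibroblast, 4 of 8 endothelial and 3 of 8 macrophage and leukocyte markers, among them Ehd3 (10.36), Csf1r (7.98) and Col1a1 (7.79), while Pecam1 (5.77), Ptprc (3.78) and Lum (3.76) lay below it. In whole cultures fewer cells of a type and less RNA per cell cannot be told apart, and the part of any other cell type in the results below was not tested.

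The genes that changed most were read first on each array. Aldh1l2, a mitochondrial folate enzyme, had values of 5.91, 5.86 and 5.42 with DMSO and 10.23, 10.21 and 10.29 with thapsigargin. Slc7a11, the cystine importer, stood at 4.73, 4.84 and 4.65 against 9.08, 8.97 and 9.16. Trib3, a pseudokinase induced by ATF4 and CHOP, stood at 6.91, 6.73 and 6.53 against 10.62, 10.53 and 10.53. In each gene the groups were far apart and the lowest thapsigargin array lay above the highest DMSO array, with rises of 22.8-fold, 20.1-fold and 14.3-fold (log2 4.51 ± 0.11, 4.33 ± 0.07 and 3.83 ± 0.09; limma adjusted p = 8.37e-09, 1.19e-09 and 5.6e-09). The other large rises included Cdsn, a protein of cornified skin, at 13-fold, Cth, which makes cysteine, at 11.5-fold, Apobec1, an RNA-editing deaminase, at 9.57-fold, Dus4l, a tRNA-modifying enzyme, at 8.24-fold, Cpox, of haem synthesis, at 7.66-fold, and Piga, which starts GPI anchors, at 6.7-fold. Among the falls, Inmt, a methyltransferase, read 12.09, 11.80 and 11.92 with DMSO and 7.76, 7.55 and 7.69 with thapsigargin, a 19.3-fold fall (-4.27 ± 0.09, limma adjusted p = 3.75e-09). Lbp, which binds bacterial lipopolysaccharide, read 10.69, 10.65 and 10.73 against 6.63, 6.52 and 6.55, a 17.4-fold fall. Hacd4, of fatty acid elongation, went down 14.7-fold, the phospholipase gene Pla1a 13.1-fold, the interferon-induced GTPase gene Iigp1 12.4-fold and Car2, a carbonic anhydrase, 8.35-fold. All of these falls start from high DMSO levels, whereas Slc7a11 and Aldh1l2 start below the median of all probe sets, 5.83.

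**Figure D2:**
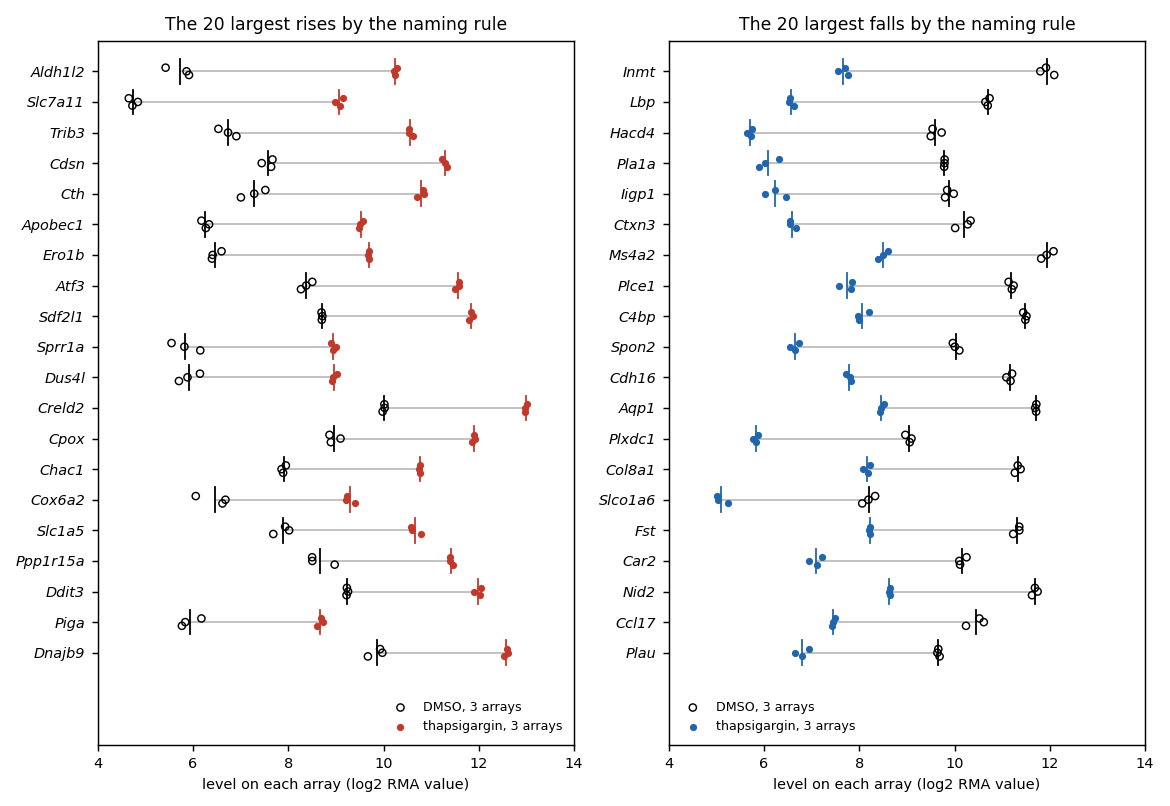
Level of the 20 genes with the largest rise (left) and the 20 with the largest fall (right) on each array, clone names left out (log2 RMA value); open circles are the 3 DMSO arrays, filled circles the 3 thapsigargin arrays and vertical ticks the group means. In all 40 genes the groups do not overlap, from Aldh1l2 at 4.51 to Dnajb9 at 2.71 and from Inmt at -4.27 to Plau at -2.87.

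By fixed cut-offs, 1 gene crossed from below the lower quartile of all probe sets to above their median, and 3 crossed the other way. These cut-offs set the counts: Slc7a11, with a DMSO mean of 4.74, lay just above the lower quartile and is not counted. Hectd2, a gene of the ubiquitin ligase family, read 4.41, 4.47 and 4.53 with DMSO, below the lower quartile of all probe sets (4.56), and 7.13, 6.79 and 7.24 with thapsigargin, above their median. Tinag, a basement membrane protein, and the Ly6 genes Ly6f and Ly6g2 went the other way. Ly6g2 read 7.05, 7.16 and 7.48 with DMSO and 4.77, 4.33 and 4.35 with thapsigargin (-2.74 ± 0.21, limma adjusted p = 4.77e-06).

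Sequences upstream of the raised genes are shown because the factors of the pathway bind known short elements there. Promoter windows of 250 bases before to 50 after a start, from RefSeq (GRCm38.p6), were on hand for 16990 of the 22180 genes (76.6%). The ER stress response element (ERSE), read by ATF6 and XBP1 with the factor NF-Y, was searched as CCAAT, any 9 bases and CCACG, and its second form (ERSE-II) as ATTGG, any 1 base and CCACG. The first 4 sequences below hold the ERSE of the raised genes of largest change, with its bases in capitals, and those of Hspa5 and Herpud1 (ERSE-II) were added after their values were seen.
Ero1b, chr13:12565642-12565740, + strand: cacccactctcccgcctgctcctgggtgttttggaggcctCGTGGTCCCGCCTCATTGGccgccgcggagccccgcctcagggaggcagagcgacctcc
Creld2, chr15:88819480-88819578, + strand: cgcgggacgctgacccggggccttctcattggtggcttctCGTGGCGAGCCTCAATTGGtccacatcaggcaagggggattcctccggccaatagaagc
Dnajc3, chr14:118937787-118937885, + strand: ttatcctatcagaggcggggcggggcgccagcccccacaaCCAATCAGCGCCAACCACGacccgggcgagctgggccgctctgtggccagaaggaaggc
Syvn1, chr19:6046492-6046575, + strand: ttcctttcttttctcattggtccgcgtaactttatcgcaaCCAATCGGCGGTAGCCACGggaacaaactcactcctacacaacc
Hspa5, chr2:34771985-34772083, + strand: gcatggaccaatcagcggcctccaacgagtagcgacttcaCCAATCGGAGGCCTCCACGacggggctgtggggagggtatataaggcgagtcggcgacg
Herpud1, chr8:94386337-94386427, + strand: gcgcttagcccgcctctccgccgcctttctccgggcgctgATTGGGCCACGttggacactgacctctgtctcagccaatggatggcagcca
The element lies at positions -201 to -183 from the start in Ero1b, -126 to -108 in Creld2, -105 to -87 in Dnajc3, -44 to -26 in Syvn1, -65 to -47 in Hspa5 and -52 to -42 in Herpud1. In Ero1b and Creld2 it reads on the other strand, so CCACG appears as CGTGG and CCAAT as ATTGG.

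The composite element of ATF4 and its partners (CARE) was searched as TGATGNAA. It is shown in capitals for the 4 raised genes of largest change that hold it before the start.
Slc7a11, chr3:50443614-50443719, - strand: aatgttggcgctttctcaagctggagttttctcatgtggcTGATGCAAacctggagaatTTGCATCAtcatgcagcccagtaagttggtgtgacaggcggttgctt
Atf3, chr1:191183396-191183483, - strand: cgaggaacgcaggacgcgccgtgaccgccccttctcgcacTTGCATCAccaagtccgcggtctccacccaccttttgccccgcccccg
Chac1, chr2:119351009-119351096, + strand: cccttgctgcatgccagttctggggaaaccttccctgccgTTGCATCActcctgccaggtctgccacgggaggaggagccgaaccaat
Angptl8, chr9:21835340-21835427, + strand: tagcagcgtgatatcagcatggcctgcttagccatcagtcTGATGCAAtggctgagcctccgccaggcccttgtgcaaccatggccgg
Slc7a11 holds a facing pair of matches between positions -66 and -40. Single matches lie at -110 to -103 in Atf3, a stress-induced transcription factor, -193 to -186 in Chac1, which breaks down glutathione, and -130 to -123 in Angptl8, a regulator of lipoprotein lipase. Angptl8 read 8.01, 7.87 and 7.86 with DMSO and 10.28, 10.10 and 10.16 with thapsigargin.

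Matches were counted on both strands over all windows, and a match is a description of letters. Genes at least 2-fold higher had a mean of 1.2 windows each, those at least 2-fold lower 1.28 and all above the median level 1.26. An ERSE was found in 29 genes, of which 12 rose (41.4%, beside 18.2% of all genes) and 0 fell (beside 16.9%). The same background shares apply to ERSE-II, and both were larger among bright genes. Of the 17 genes with an ERSE that were not called, 13 lay at or below the median level in both groups. The 12 that rose were Ero1b, Creld2, Dnajc3, Syvn1, Hspa5, Alg12, Hsp90b1 (with 2 matches), Pdia6, Hnrnpa3, Zfp57, Calr and Canx, from 3.22 for Ero1b to 0.34 for Canx. ERSE-II was found in 9 genes, and all 9 rose: Rcl1 (2.41), Herpud1 (2.18), Dnajb11 (1.33), Krtcap2 (1.0), Lgalsl (0.83), Nucb1 (0.72), Rbm39 (0.70), Lrif1 (0.53) and Rnf151 (0.49), all named for the match and not for their change. Thus 1.8% of the genes at least 2-fold higher held an ERSE, against 0.151% of all genes above the median level and 0 of 484 genes at least 2-fold lower; over all called genes it was 0.37% of those higher and 0 of those lower. A UPRE (TGACGTGG, whose other strand holds CCACG and can overlap an ERSE) was found in 2.34% of genes at least 2-fold higher, in 1.06% of all above the median level and in 0 of the 484 lower. The CARE was found in 6.29%, 2.77% and 1.45% of the same groups; over all called genes the share was 3.2% of those higher and 2.56% of those lower. The ISRE of interferon factors (GAAA, any 2 bases and GAAAC) was found in 1.26% (7 genes), 0.859% and 0.826% (4 genes), but over all called genes in 0.678% of those higher and 1.23% of those lower. The AP-1 site (TGANTCA) was found in 5.04%, 6.21% and 8.47%. Over all 16990 genes with a window, whatever their level, the shares were 0.171% for the ERSE, 0.053% for ERSE-II, 0.865% for the UPRE, 3.92% for the CARE, 0.901% for the ISRE and 8.42% for the AP-1 site.

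**Figure D3:**
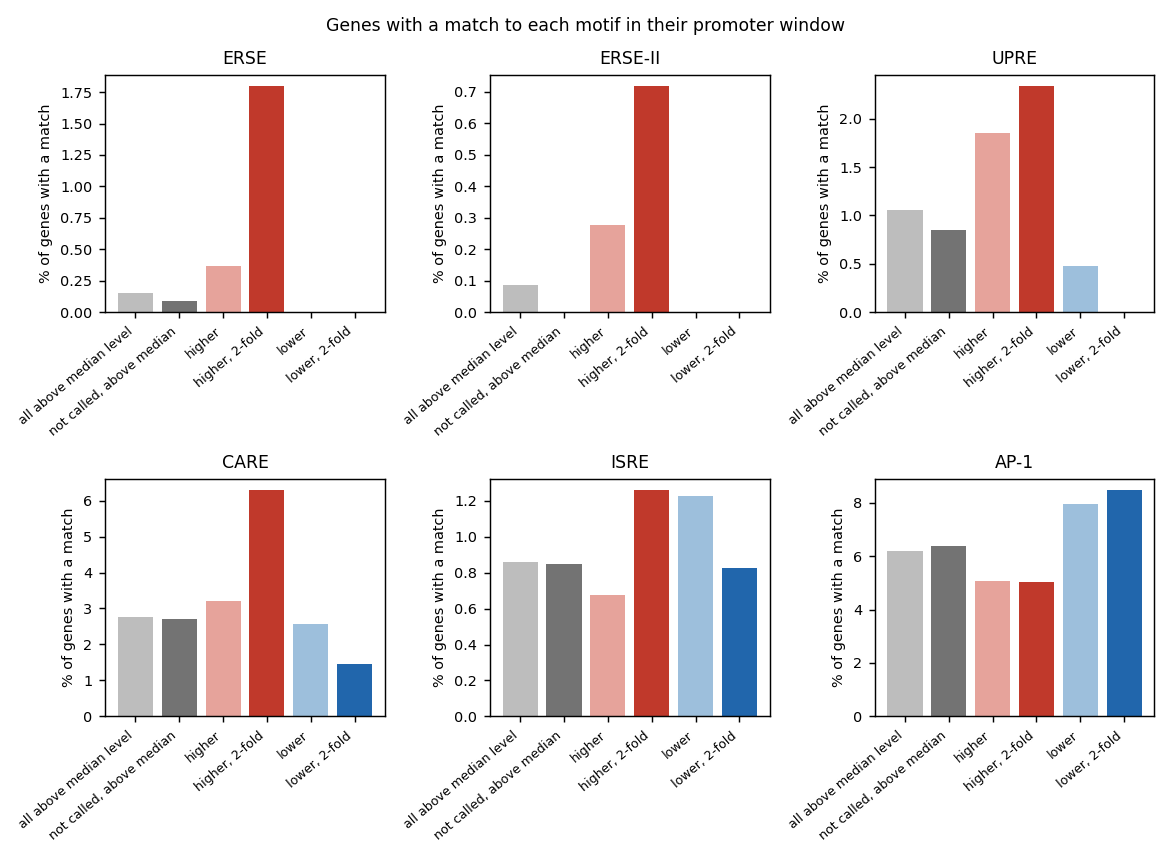
Bars give the percent of genes with at least 1 match to each motif in their promoter window, for all genes above the median level, the uncalled genes among them, all called genes and those at least 2-fold changed; each panel has its own vertical axis from 0. The ERSE reaches 1.8% and the CARE 6.29% of genes at least 2-fold higher, and 0.37% and 3.2% of all genes called higher. The AP-1 site is at 8.47% of genes at least 2-fold lower, beside 6.21% of all above the median level. Over all genes with a window, not drawn here, its share is 8.42%.

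The genes of the ER stress sensors and of the transcription factors of the response were mostly raised. Ddit3, which encodes CHOP, read 9.22, 9.25 and 9.23 with DMSO and 12.02, 11.89 and 12.04 with thapsigargin, and Atf6 read 9.68, 9.77 and 9.77 against 11.50, 11.53 and 11.63. The groups were far apart in both, and the rises were 6.72-fold and 3.51-fold (limma adjusted p = 3.31e-09 and 2.05e-08). Ern1, which encodes IRE1, rose 2.84-fold, Xbp1 2.41-fold, Atf4 2.23-fold and Eif2ak3, which encodes PERK, 1.81-fold. Of 16 sensors and transcription factors of this response measured, 10 rose (62.5%, beside 18.2% of all genes) and 1, the protease gene Mbtps1, fell (6.25%, beside 16.9%), with a median change of 0.60 (-0.039 over all genes). The same 2 background shares stand behind every list count below, and they were larger among bright genes, as given above. The arrays measure the whole Xbp1 transcript, and its splicing was not analysed here.

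Chaperones of the ER lumen rose next to the sensors. Hspa5, which encodes BiP, read 10.68, 10.81 and 10.75 against 12.34, 12.34 and 12.34, a 3.02-fold rise. Its thapsigargin values are equal, as for 326 genes in that group, and its standard error comes from the fit over all groups. Sdf2l1, a cofactor of BiP, read 8.70, 8.72 and 8.70 against 11.80, 11.87 and 11.84, an 8.78-fold rise, and Creld2 read 9.98, 10.02 and 10.02 against 12.97, 12.96 and 13.01, a 7.86-fold rise. The replicates of these genes differ by little beside the change (limma adjusted p = 2.21e-08, 1.19e-09 and 1.19e-09). The BiP co-chaperone Dnajb9 rose 6.55-fold, the calcium-binding Nucb2 5.15-fold, Manf, a secreted ER protein, 4.01-fold and Dnajc3 3.98-fold. In all, 21 of 30 rose and 3 fell (Cnpy4 at -0.68, Fkbp9 at -0.58 and Ppic at -0.45), with a median of 0.55. Disulfide isomerases and oxidases were more mixed, with 12 of 25 higher, 6 lower and a median of 0.20. The oxidases Ero1b and Ero1a, which feed disulfide bonds to the isomerases, rose by 3.22 and 1.55, Txndc11 by 1.78 and Pdia5 by 1.45, whereas the ER peroxidase gene Gpx8 fell by 1.52.

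Most called genes of the rest of the early secretory pathway were higher too. Degradation of misfolded proteins from the ER had 20 of 32 members higher and 1, Erlec1, lower, with a median of 0.42. Herpud1 rose 4.52-fold, Sel1l and Syvn1, which form the core ubiquitin ligase, 4.06-fold and 3.79-fold, and Edem1, a lectin for misfolded glycoproteins, 3.4-fold. For entry into the ER 20 of 24 rose and 2 fell, with a median of 0.70. The signal peptidase subunit Sec11c rose by 1.41 and the channel subunit Sec61a1 by 1.0, while Tram2 fell by 1.17 and Sec62 by 0.29. N-glycan synthesis and transfer had 33 of 46 higher and 5 lower, with a median of 0.63. Gnpnat1 and Gfpt1, of UDP-GlcNAc supply, rose 5.65-fold and 3.52-fold, Gmppb, of GDP-mannose supply, 3.73-fold, and Alg8, which adds glucose to the lipid-linked glycan, 2.72-fold. The 5 lower members were all below 2-fold, with Tusc3 lowest at -0.85. There were 2 lower members without thapsigargin replicate 1 or replicate 2, and 3 without DMSO replicate 2. The count was also 2 with arrays centred on their medians, with only the 6 DMSO and thapsigargin arrays, or with all probe sets tested.

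Export from the ER in COPII vesicles had 21 of 28 members higher, 2 lower and a median of 0.64. Sec24d, a coat subunit that picks cargo, read 9.29, 9.43 and 9.51 with DMSO and 10.97, 11.02 and 11.05 with thapsigargin, a 3.04-fold rise. The cargo receptor subunit gene Mcfd2 rose by 1.75 and the SNARE gene Bet1 by 1.73, and Mia2 (-0.88) and Ergic3 (-0.44) fell. Retrieval to the ER by COPI and the TMED receptors had 20 of 27 higher and 4 lower, with a median of 0.39. Without DMSO replicate 2 or 3 or any 1 thapsigargin array, 2 were lower. The same lower count came with arrays centred on their medians, with only the 6 DMSO and thapsigargin arrays, or with all probe sets tested. Kdelr2 and Kdelr3, which return chaperones to the ER, rose by 1.10 and 0.96. In the Golgi most called genes were lower. Of 40 glycosyltransferases and mannosidases of the Golgi, 26 fell and 3 rose (Galnt3, Mgat2 and B4galt6), with a median of -0.30. The sialyltransferase gene St3gal5 read 11.12, 11.17 and 11.06 with DMSO and 9.22, 9.31 and 9.25 with thapsigargin, a 3.62-fold fall (limma adjusted p = 1.66e-08), and St6gal1 also fell 3.62-fold. Galnt2, which starts O-glycans, fell 2.97-fold and Mgat5, which branches N-glycans, 2.65-fold.

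**Figure D4:**
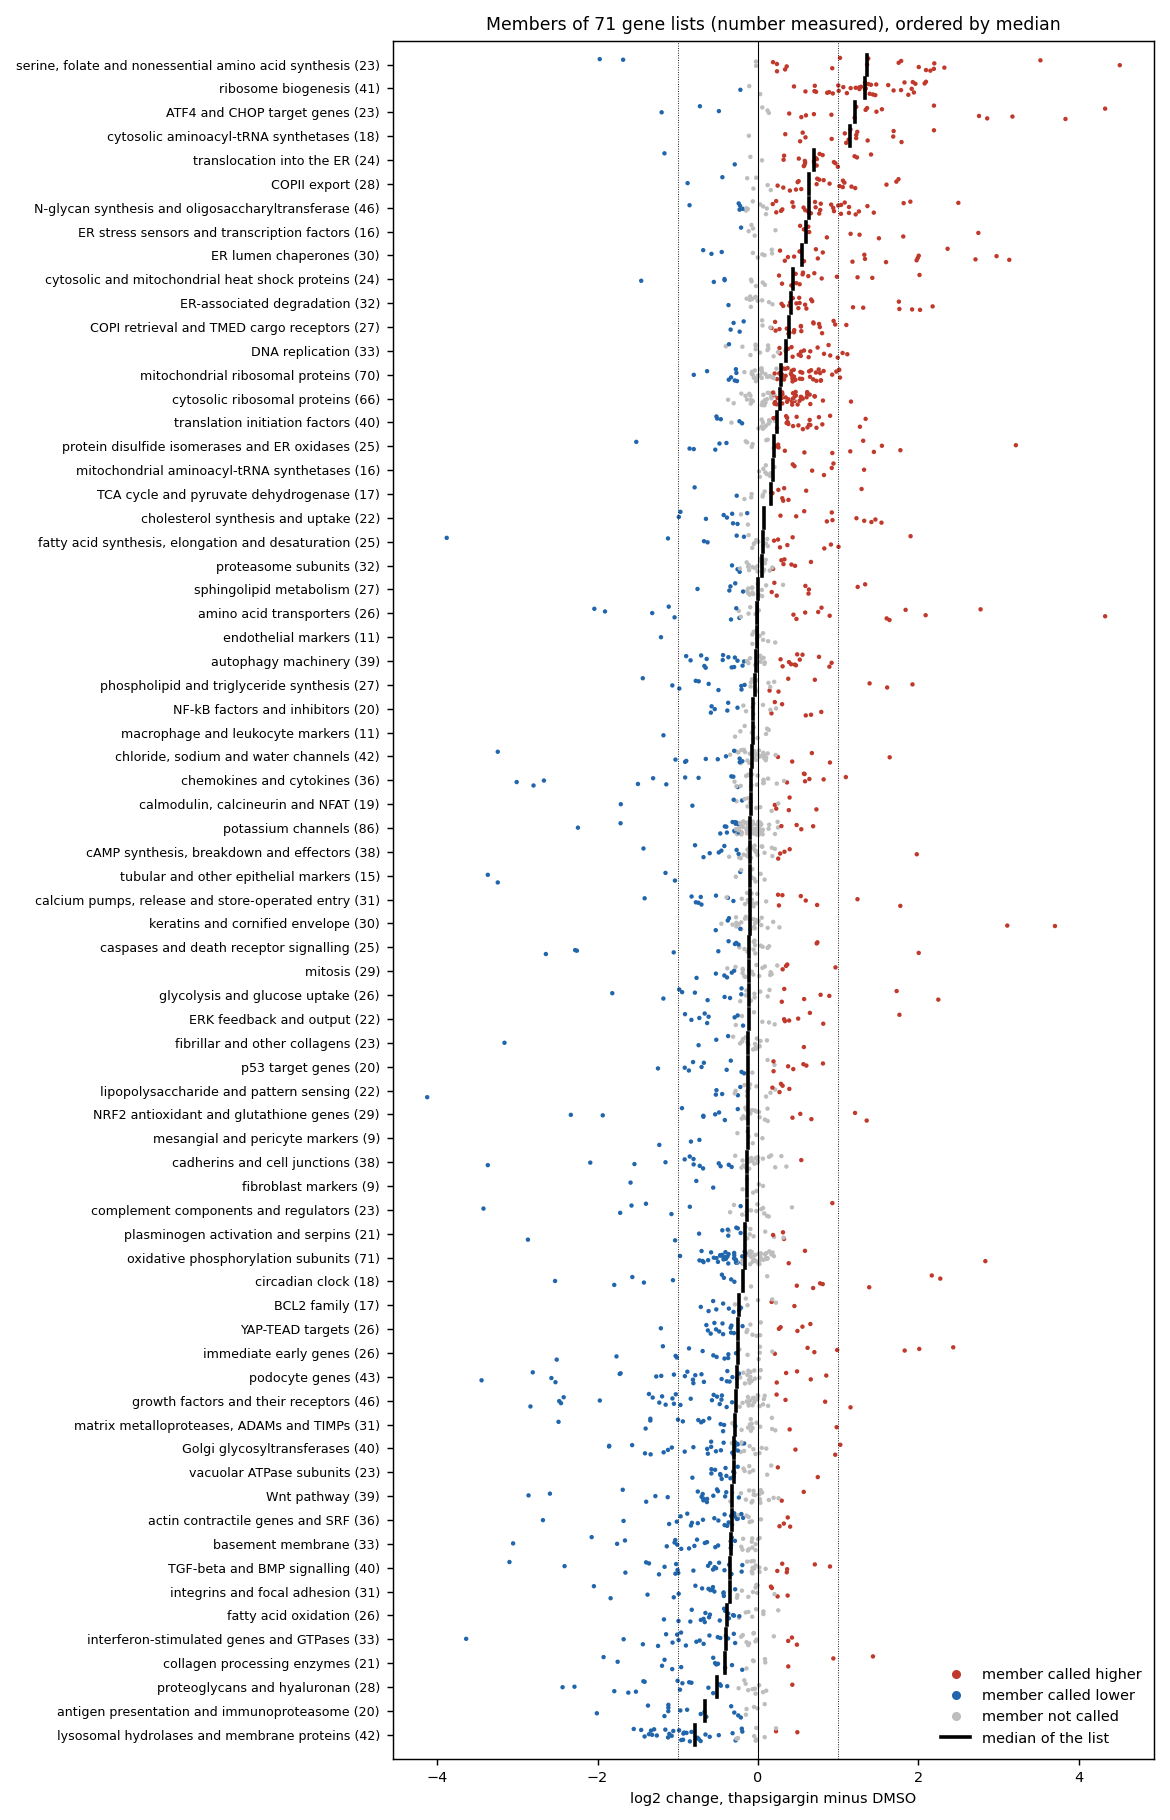
Each point is a measured member of 1 of 71 gene lists, placed by its log2 change (thapsigargin minus DMSO) and coloured by its call, and the black bar is the list's median. Medians run from 1.36 for serine, folate and nonessential amino acid synthesis to -0.79 for lysosomal proteins, and in most lists members move both ways.

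Targets of ATF4 and CHOP and the supply of amino acids rose together. Of 23 targets measured 17 rose and 3 fell (Stc2 at -1.20, Rnf122 at -0.72 and Ndrg1 at -0.49), with a median of 1.21. Atf3 read 8.27, 8.38 and 8.50 with DMSO and 11.50, 11.58 and 11.58 with thapsigargin, a 9.02-fold rise. Chac1 rose 7.25-fold and Ppp1r15a, whose protein restores translation by dephosphorylating eIF2α, 6.76-fold; its DMSO values of 8.97, 8.50 and 8.50 hold 1 array above the others. Serine, folate and nonessential amino acid synthesis had 19 of 23 members higher, with a median of 1.36. Cth read 7.01, 7.28 and 7.52 against 10.70, 10.85 and 10.82. Mthfd1l, of mitochondrial folate, rose 5.01-fold, Aldh18a1, which makes proline precursors, 4.59-fold, and Shmt2 and Psat1, which make glycine and serine, 4.57-fold and 4.44-fold. Glul, which makes glutamine, fell by 1.97, and Cbs, which with Cth turns homocysteine into cysteine, by 1.68.

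Amino acid transporters split by member, with 12 of 26 higher and 8 lower. Slc1a5, a carrier of glutamine and small neutral amino acids, read 7.68, 8.02 and 7.93 with DMSO and 10.78, 10.60 and 10.58 with thapsigargin, and its relative Slc1a4 rose by 1.84. The glutamine carrier gene Slc38a1 rose by 2.09. The taurine carrier gene Slc6a6 fell from 12.34, 12.43 and 12.42 to 10.33, 10.34 and 10.40, and the glutamate carrier gene Slc1a1 fell by 1.91. The enzymes that charge tRNA with amino acids work in the cytosol and in mitochondria. Of 18 cytosolic aminoacyl-tRNA synthetases 17 rose and 0 fell, with a median of 1.14, from Wars at 4.58-fold and Eprs at 3.46-fold down. Of 16 mitochondrial ones 7 rose and 0 fell, with a median of 0.18 and Nars2 highest at 1.32; the difference between the lists was not tested.

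Most genes of ribosome assembly rose. Of 41 genes of ribosome biogenesis 38 rose, 30 of them at least 2-fold, and 1, Rrp1 (-0.22), fell, with a median of 1.33, a 2.52-fold higher level. Heatr1, of ribosomal RNA transcription and processing, read 7.60, 7.69 and 7.81 with DMSO and 9.69, 9.77 and 9.92 with thapsigargin. The nucleolar GTPase gene Gnl3 read 8.85, 8.94 and 9.0 against 10.96, 11.03 and 11.04, and the helicase gene Ddx10 read 8.15, 8.19 and 8.34 against 10.14, 10.21 and 10.23. None of these values overlap between the groups, and the rises were 4.27-fold, 4.22-fold and 3.9-fold (limma adjusted p = 4.69e-08, 1.03e-08 and 2.39e-08). Of 66 cytosolic ribosomal proteins 39 rose and 0 fell, with a median of 0.28 and Rpl30 highest at 1.16. Ribosomal protein genes have many near-identical copies, so their probe sets may read more than 1 locus. Initiation factors had 22 of 40 higher and 5 lower, with Eif4ebp1, a brake on cap-dependent translation, at 1.34 and the exchange factor subunit gene Eif2b3 at 1.27.

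In mitochondria most called genes of translation were higher and most of the respiratory chain lower. Of 70 mitochondrial ribosomal proteins 39 rose and 8 fell, with a median of 0.29 and Mrps30 and Mrps27 at 1.01. Of 71 subunits of oxidative phosphorylation 32 fell and 3 rose, with a median of -0.16. The falls were small: Ndufb3, of complex I, read 7.89, 7.91 and 8.05 with DMSO and 6.91, 7.04 and 6.98 with thapsigargin (-0.97 ± 0.07), and Cox6b1, of complex IV, fell by 0.69. The 3 that rose were Cox6a2, Uqcrq (0.59) and Atp5g1 (0.38), and 7 rose with an intensity trend and robust prior, or 8 with dim genes left out. Cox6a2, the muscle form of a complex IV subunit, read 6.62, 6.68 and 6.06 against 9.40, 9.22 and 9.24, a 7.14-fold rise. Fatty acid oxidation had 18 of 26 members lower and 0 higher, with a median of -0.39; Acadm, of medium-chain fatty acids, fell by 1.17 and Cpt2, of carnitine transfer, by 0.99. In the TCA cycle 9 of 17 rose and 2 fell, led by Dld, a subunit shared by dehydrogenase complexes, at 1.29. Glycolysis and glucose uptake had 7 of 26 higher and 10 lower. Hk2, which traps glucose, read 7.18, 7.45 and 7.33 against 9.52, 9.47 and 9.71, a 4.75-fold rise, and the lactate carrier gene Slc16a1 rose 3.32-fold, while Ldhb fell 3.52-fold.

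**Figure D5:**
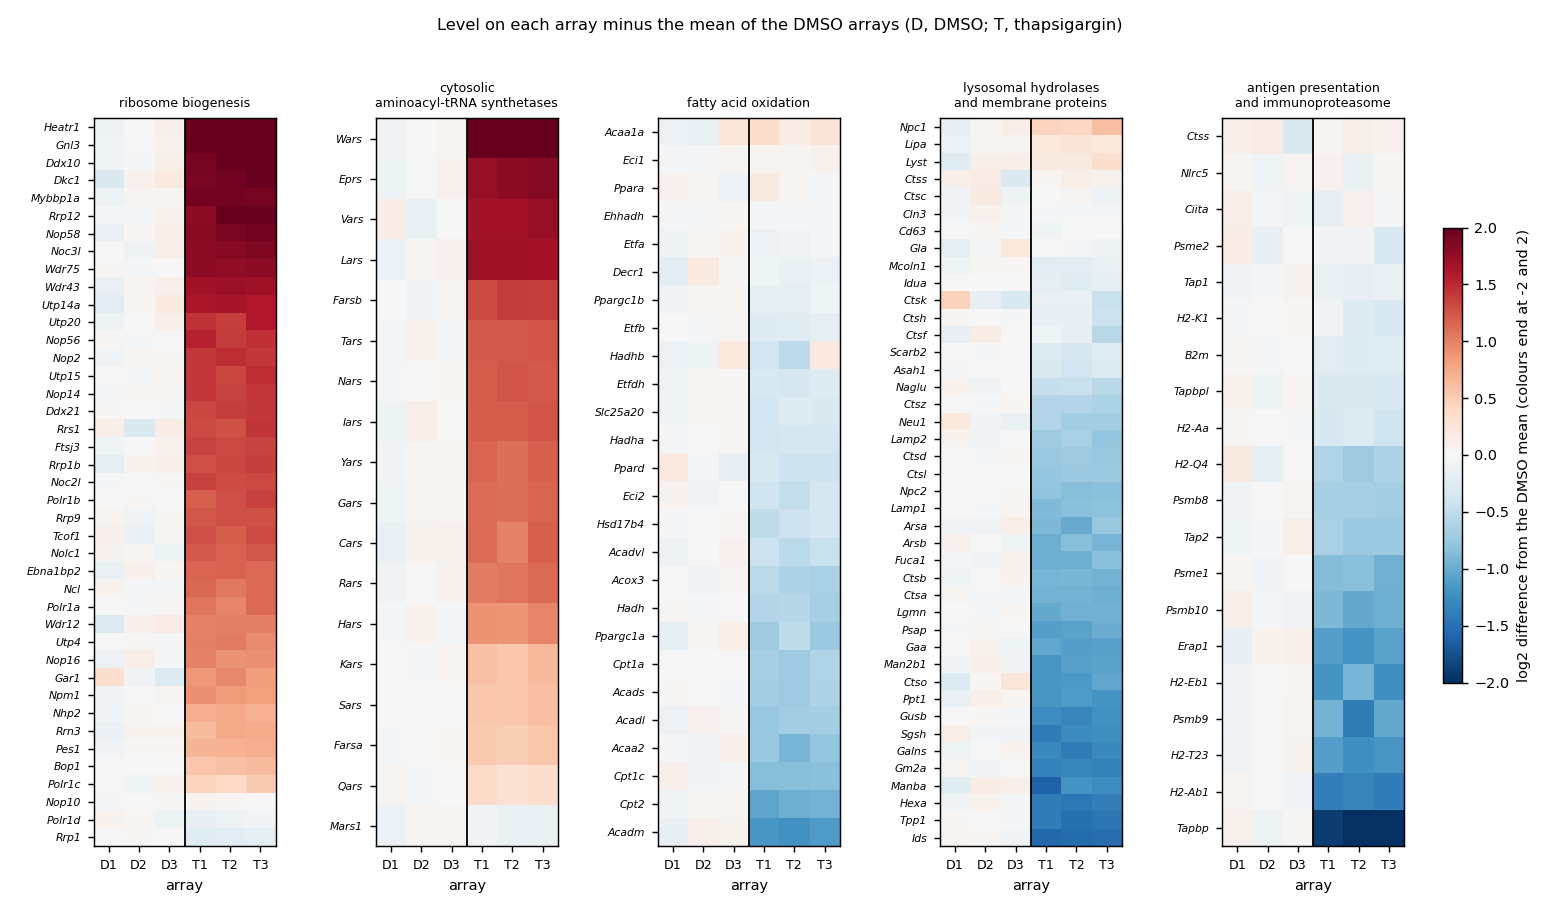
Each row is a gene and each column an array (D, DMSO; T, thapsigargin), coloured by the log2 value minus the mean of the 3 DMSO arrays; colours end at -2 and 2, and genes are ordered by change. Ribosome biogenesis (38 of 41 higher) and cytosolic tRNA synthetases (17 of 18 higher) are red on all 3 thapsigargin arrays, while fatty acid oxidation (18 of 26 lower), lysosomal genes (31 of 42 lower) and antigen presentation (15 of 20 lower) are mostly blue.

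Lipid genes moved both ways within a pathway. Cholesterol synthesis and uptake had 11 of 22 members higher and 9 lower; Mvd and Cyp51 rose 2.91-fold and 2.76-fold, whereas Hsd17b7, of the same route, fell 1.98-fold. In fatty acid synthesis and elongation 9 of 25 rose and 6 fell. Hacd4 read 9.50, 9.73 and 9.54 with DMSO and 5.73, 5.65 and 5.74 with thapsigargin, while Acsl4, which activates polyunsaturated fatty acids, rose 3.74-fold and Fasn 2.01-fold. Of 27 genes of phospholipid and triglyceride synthesis 7 rose, with the choline kinase gene Chka at 3.8-fold, and 10 fell, but 8 rose and 7 fell with arrays centred on their medians. Sphingolipid genes had 8 of 27 higher and 5 lower, led by Ormdl2, a brake on their synthesis, at 1.34; without DMSO replicate 1 or any 1 thapsigargin array 6 were higher and 3 lower, and after another quantile normalization 6 and 6.

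Calcium handling genes were called in both directions, pumps among them. Atp2a2, a gene of the SERCA pumps that thapsigargin blocks, read 11.00, 10.95 and 10.97 with DMSO and 12.71, 12.74 and 12.78 with thapsigargin, a 3.42-fold rise (limma adjusted p = 1.03e-08). The other SERCA gene measured, Atp2a3, read 6.16, 6.39 and 6.31 against 6.51, 6.66 and 6.47, a change of 0.26 ± 0.08 (limma adjusted p = 0.0377) that was not called without DMSO replicate 1 (adjusted p = 0.12), without DMSO replicate 3 (0.0629), without thapsigargin replicate 1 (0.0673) or without thapsigargin replicate 2 (0.128), nor with array weights (0.0568) or with all probe sets tested (0.0718). At the plasma membrane the calcium pump gene Atp2b1 rose by 1.24 and Atp2b4 fell by 1.41. The ER calcium sensors of store-operated entry, Stim1 and Stim2, fell by 0.74 and 0.77. Over 31 genes of calcium pumps, release and entry 8 rose and 9 fell, with a median of -0.10. Of 19 genes of calmodulin, calcineurin and NFAT 5 rose and 4 fell, with the calcineurin inhibitor gene Rcan2 lowest at -1.71; without thapsigargin replicate 2, 2 fell, and after another quantile normalization 3 rose and 4 fell.

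Genes of cell death and survival had more falls than rises. Of 17 genes of the BCL2 family 9 fell, all below 2-fold, and 2 rose, Bid by 0.45 and Pmaip1 by 0.17. Both promoters and inhibitors of death were among those that fell: Bcl2l11, which encodes BIM, by 0.71, Bcl2l1, which encodes BCL-XL, by 0.62, and Mcl1 by 0.52. Caspase genes diverged. Casp12, tied to the ER in rodents, read 9.01, 9.28 and 9.32 with DMSO and 6.89, 6.80 and 7.15 with thapsigargin, a 4.78-fold fall, and Casp1, of inflammasomes, fell 6.25-fold. Casp4 read 7.36, 7.57 and 7.78 against 9.59, 9.58 and 9.55, a 4.01-fold rise (limma adjusted p = 2.32e-07). The death receptor gene Fas fell 4.85-fold, and over 25 caspase and death receptor genes 3 rose and 9 fell. Of 20 p53 targets 7 rose and 10 fell, with Perp lowest at -1.25. In the cell cycle 19 of 33 genes of DNA replication rose and 1, Tk1 (-0.36), fell, with a median of 0.35; the origin factors Cdc45 and Cdt1 rose by 1.11 and 1.05. Of 29 mitosis genes 4 rose, Tpx2 by 0.97, and 6 fell, Ccna2 by 0.77 and Mki67 by 0.52; without DMSO replicate 1, 3 rose and 11 fell, and without thapsigargin replicate 2 or 3, 2 rose.

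Other stress programmes were read in the same way. Heat shock proteins had 15 of 24 members higher and 4 lower. The mitochondrial protease gene Lonp1 read 8.16, 8.30 and 8.41 with DMSO and 10.22, 10.33 and 10.36 with thapsigargin, a 4.04-fold rise, and the mitochondrial chaperone genes Hspd1, Hspe1 and Hspa9 rose by 1.43, 1.24 and 0.98. Cryab, Hspb1, Dnajb1 and Bag3, of the cytosol, fell by 1.46, 0.55, 0.42 and 0.42. The heat shock factor gene Hsf2 rose by 0.79. Most of the 15 rises are not named here, and the calls were not counted by compartment. NRF2 and glutathione genes had 5 of 29 higher and 9 lower, and 14 lower after another quantile normalization. Hmox1, which degrades haem, rose by 1.36, and the glutathione transferase genes Gstm2 and Gstm1 fell 5.04-fold and 3.82-fold. Proteasome subunits had 7 of 32 higher and 3 lower, the most at 0.66 for Psmd14, and 6 higher and 6 lower both without DMSO replicate 1 and after another quantile normalization. Autophagy genes were split, with 12 of 39 higher, led by Atg13 at 0.92, and 15 lower, led by the ER-phagy receptor gene Retreg1 at -0.89.

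Most measured lysosomal genes were lower. Of 42 hydrolases and membrane proteins 31 fell, 13 of them at least 2-fold, and 2 rose, Npc1 by 0.49 and Lipa by 0.23, with a median of -0.79. Ids, which breaks down heparan and dermatan sulfate, read 11.14, 11.10 and 11.01 with DMSO and 9.51, 9.54 and 9.56 with thapsigargin. Tpp1, a peptidase, read 12.09, 12.05 and 12.03 against 10.66, 10.54 and 10.60, and Hexa, of ganglioside breakdown, read 10.08, 10.21 and 10.12 against 8.73, 8.69 and 8.76. The groups were apart in all 3 genes, with falls of 2.92-fold, 2.74-fold and 2.66-fold (limma adjusted p = 3.39e-08, 4.72e-08 and 9.49e-08). Of 23 subunits of the proton pump that acidifies the lysosome 14 fell and 2 rose, with a median of -0.30; the subunit isoform gene Atp6v0a1 fell by 0.82 and its relative Atp6v0a2 rose by 0.75.

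Immune genes were lower in several groups. Of 33 interferon-stimulated genes 20 fell and 3 rose (Isg15 at 0.49, Irgm2 at 0.42 and Mx2 at 0.38), with a median of -0.40. Iigp1 read 9.80, 9.98 and 9.84 with DMSO and 6.46, 6.02 and 6.23 with thapsigargin, and the regulator gene Irf1 fell 2.7-fold. Antigen presentation had 15 of 20 members lower and 0 higher, with a median of -0.66. Tapbp, which loads peptides on MHC class I in the ER, read 11.20, 11.00 and 11.13 against 9.21, 9.07 and 9.03, a 4.02-fold fall, and the class II gene H2-Ab1 fell 2.59-fold. Complement had 7 of 23 lower and 1, Cr1l (0.93), higher; C4bp, a fluid-phase inhibitor, fell 10.7-fold. Among 36 chemokines and cytokines 11 fell and 7 rose. Ccl17 read 10.24, 10.61 and 10.52 against 7.42, 7.45 and 7.48, and Cxcl12 and Cx3cl1 fell 6.96-fold and 6.36-fold. NF-kB factors and inhibitors were even, with 6 of 20 higher and 6 lower, or 3 and 7 after another quantile normalization. The sensing of lipopolysaccharide had 5 of 22 higher and 6 lower, all but Lbp below 2-fold; 3 were higher and 5 lower without DMSO replicate 2, and 6 higher and 5 lower with arrays centred.

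Some signalling lists were split between rises and falls, and in others most called genes fell. Among 26 immediate early genes 7 rose and 13 fell. Fos read 9.47, 9.32 and 9.35 with DMSO and 6.90, 6.92 and 6.79 with thapsigargin, and Egr1 read 11.06, 10.70 and 10.75 against 9.09, 9.05 and 9.09. Myc read 9.38, 9.16 and 9.04 against 11.71, 11.60 and 11.58. Thus Fos and Egr1 fell 5.69-fold and 3.4-fold and Myc rose 5.41-fold, as did Klf4 (4.03-fold) and Nr4a2 (3.55-fold). Of 18 clock genes 7 rose and 9 fell. Dbp, an output factor, fell 5.77-fold, and Nfil3, which opposes it at shared sites, rose 4.83-fold; the repressor gene Ciart rose 4.49-fold and Per3 fell 3.46-fold. In the ERK list 7 of 22 rose, with Etv5 at 1.76, and 9 fell. Of 40 genes of TGF-beta and BMP signalling 23 fell and 6 rose, with a median of -0.34, among them Fst, which traps activin, at 8.56-fold and Bmp4 at 5.32-fold lower. The Wnt pathway had 19 of 39 lower, led by the inhibitors Sfrp1 (7.26-fold) and Dkk3 (6.04-fold), and 2 higher, Lef1 (0.57) and Wnt7a (0.30). Growth factors and receptors had 23 of 46 lower, led by Vegfd (7.14-fold) and Fgf18 (5.57-fold), and 4 higher, Vegfa by 1.15, Fgf7 by 0.84, Egfr by 0.34 and Nrg1 by 0.23. For cAMP 5 of 38 rose, the phosphodiesterase gene Pde3b 3.94-fold, and 9 fell, the cAMP-regulated exchange factor gene Rapgef3 2.69-fold.

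The genes that mark the podocyte were mostly lower. Synpo, which encodes the actin-bundling synaptopodin, read 9.25, 9.14 and 9.20 with DMSO and 6.51, 6.66 and 6.85 with thapsigargin. Plce1, a phospholipase mutated in nephrotic syndrome, read 11.20, 11.24 and 11.13 against 7.82, 7.58 and 7.84, and the peptidase gene Mme read 11.88, 11.95 and 11.91 against 9.30, 9.37 and 9.35. The groups did not overlap in any of them, with falls of 5.75-fold, 10.9-fold and 5.96-fold (limma adjusted p = 2.61e-08, 6.26e-09 and 4.75e-09). Podxl, of the apical glycocalyx, fell by 0.67 and Wt1, the podocyte transcription factor, by 0.35. Nphs1, which encodes nephrin of the slit diaphragm, read 6.54, 6.71 and 6.38 against 6.40, 6.50 and 6.25, and these overlap (-0.16 ± 0.10, limma adjusted p = 0.253). Over 43 podocyte genes 23 fell and 5 rose (Anln, Foxc2, Pard3, Thsd7a and Cd2ap), with a median of -0.26.

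In every list of genes for the matrix outside the cells, more members fell than rose. Of 33 basement membrane genes 21 fell and 0 rose, with a median of -0.34. Nid2, a linker of laminin and collagen IV, read 11.63, 11.74 and 11.69 with DMSO and 8.64, 8.62 and 8.64 with thapsigargin, an 8.3-fold fall, Ntn4 fell 4.21-fold and Col4a1 2.2-fold. Proteoglycans and hyaluronan genes had 17 of 28 lower and 1, Gpc1 (0.43), higher, with Cemip and Cemip2, which break down hyaluronan, at 5.41-fold and 4.88-fold lower. Collagen processing had 13 of 21 lower and 3 higher; Loxl3 fell by 1.92 and its relatives Loxl4 and Lox rose by 1.43 and 0.94. Of 23 other collagens 4 fell (17.4%, beside 16.9% of all genes) and 1 rose. Col8a1 changed by far the most, at 8.94-fold lower. Matrix proteases and their inhibitors had 15 of 31 lower, with Adamts4 at 5.6-fold and Timp2 at 2.53-fold, and 2 higher. In the plasminogen system Plau, which encodes urokinase, read 9.68, 9.64 and 9.66 against 6.79, 6.65 and 6.94, and 9 of 21 fell and 3 rose.

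Among contractile and adhesion genes more were lower than higher. Of 36 actin and SRF genes 25 fell and 4 rose (Srf, Flnc, Tagln2 and Mrtfa, by at most 0.40), with a median of -0.33. Mylk, the myosin light chain kinase, read 10.22, 10.14 and 10.20 with DMSO and 7.61, 7.40 and 7.50 with thapsigargin, a 6.41-fold fall, and Myl9 fell 3.19-fold. Actb, often taken as a reference gene, fell by 0.42 ± 0.05 (limma adjusted p = 8.45e-05), and Gapdh read 13.22, 13.16 and 13.16 against 13.32, 13.30 and 13.27, a change of 0.12 that was not called (adjusted p = 0.0781) but was called under 6 alternatives. Integrins and focal adhesion had 16 of 31 lower, led by Tns1 (4.13-fold) and Itga1 (3.57-fold), and 4 higher; only 1 was higher without DMSO replicate 3 or thapsigargin replicate 2, and 2 without DMSO replicate 2 or thapsigargin replicate 1 or 3. Cell junctions had 14 of 38 lower, led by Cdh16 (10.3-fold) and Cldn1 (4.26-fold), and 1, Cldn12 (0.54), higher. Of 26 YAP-TEAD targets 14 fell and 5 rose, with Wwc1 lowest at -1.21. Keratins and cornified envelope genes had 24 of 30 members not called, and 4 fell, Krt7 most (0.53). The 2 that rose did so steeply: Cdsn read 7.64, 7.44 and 7.67 against 11.34, 11.30 and 11.22, and Sprr1a read 6.15, 5.82 and 5.55 against 8.95, 9.0 and 8.90.

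Channels were called in both directions. Of 86 potassium channel genes 14 fell and 4 rose, and without thapsigargin replicate 3, 7 fell and 4 rose; without DMSO replicate 1 or 2, 8 fell, and without thapsigargin replicate 1, 9 fell. The inward rectifier gene Kcnj16 fell 4.74-fold and the calcium-activated Kcnn3 3.28-fold. Among 42 chloride, sodium and water channels 5 rose and 11 fell. Aqp1, a water channel of the proximal tubule, read 11.71, 11.69 and 11.72 with DMSO and 8.43, 8.45 and 8.51 with thapsigargin, a 9.47-fold fall, and Cftr, a chloride channel, rose 3.12-fold. Arrdc4 and Txnip, α-arrestins that limit glucose uptake, rose by 1.48 and 0.23; Txnip was not called without thapsigargin replicate 3 (adjusted p = 0.0541) or after another quantile normalization (0.0897).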

How the data were processed

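RNA of 9 podocyte samples was measured on Affymetrix arrays. The deposited values are the authors' log2 expression values, for which the submitters' processing notes list affy and RMA. Their versions, the annotation behind the arrays and its build are not stated in the sources used here. No depth applies to arrays, and their number, 3 per group, limits the precision. For each gene the probe set with 1 symbol and the highest mean was kept. Group means of all 9 arrays were fitted with limma 3.58.1 (R 4.3.3), with Benjamini-Hochberg adjustment over 22180 genes. Named are the 20 largest rises and falls, genes crossing from below the lower quartile to above the median, in every list the 6 most changed called genes (fewer where fewer passed), single pathway and reference genes, and up to 4 raised genes per printed promoter element; members of counts of 5 or fewer, and other genes outside this rule, were chosen after their values were seen. Lists and comparison were chosen with earlier results of these data known. C-terminal protein sequences were not analysed here. Tested on simulated data (200 changed genes of 22180, 5 draws), the fit recovered 8.8% of changes of 0.25, 55.2% of changes of 0.5, 92.8% of 1 and 100% of 2, and 4.18% of calls were false. The adjusted p depends on how many genes change, and 35.0% of genes were called in the data. These rates therefore hold for the simulated setting and do not give the sensitivity of this comparison. Alternatives were another scaling, prior, weighting, filter or probe set rule, a minimum change, a replicate block, and leaving out each array. Same-numbered arrays of the groups had correlations of deviations of 0.039, 0.036 and 0.211, so the numbers were not taken to pair arrays.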

Additional observations from a re-analysis of the deposited data

How the results depend on the processing

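Under 16 alternatives 427 genes were followed: the largest changes, the genes crossing levels, the most changed list members and the single genes. Other genes named above, such as Pmaip1 and Angptl8, were not among the 427, and the counts of kept calls do not cover them. None of the 427 reversed its direction. Of the 425 called, 93 lost their call in at least 1, 331 kept it under all 16, and 1 kept it wherever it had a value; leaving out dim genes gave 6 of the 425 no value. Of the 93, 7 lost it in an alternative other than treat (Atp2a3, Camk2g, Cdc25c, Col27a1, Pdhx, Serpinb8 and Txnip). Treat with a minimum change of 0.5 called 1164 genes higher and 1077 lower, by construction of the test. With all probe sets as features, 1127 were at least 2-fold higher. Centring moved the calls to 4331 higher and 3267 lower, and another quantile normalization to 3737 and 3991; the share of calls that were higher was then 57% and 48.4%, against 51.8%, and no gene was called in opposite directions. Leaving out each array in turn gave 3579 to 4054 genes higher, 3266 to 3816 lower, 638 to 739 at least 2-fold higher and 632 to 662 at least 2-fold lower. With the replicate number as a block 4085 genes were higher and 3933 lower, and 685 and 653 at least 2-fold. Atp2a3 (limma adjusted p = 0.0524) and Serpinb8 (0.0514) were then not called, and no other call among the 427 was lost. Small list counts moved most when an array was left out: BCL2 rises went from 2 to 1 without DMSO replicate 1 or 2 or any 1 thapsigargin array, plasminogen rises from 3 to 1 without DMSO replicate 2 or thapsigargin replicate 3, and cell junction rises from 1 to 3 without DMSO replicate 3. Dim genes limit detection: 1.49% of the dimmest 20% were called higher.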

Other observations

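The classes below are read beside the 18.2% of all genes that were higher and the 16.9% that were lower. Dim genes were called less often, and the levels of the classes were not compared. A low share of calls is therefore not read as a weaker response. Of 1995 long noncoding RNA genes 87 (4.36%) were higher and 150 (7.52%) lower after thapsigargin, and of 478 microRNA genes 16 (3.35%) were higher and 37 (7.74%) lower. Of 81 small nucleolar RNA genes, which guide the modification of ribosomal RNA, 19 (23.5%) were higher and 8 (9.88%) lower. Of 218 pseudogenes 26 (11.9%) were higher and 9 (4.13%) lower, and these can share probes with their parent genes. The 17824 probe sets without a single symbol held 1541 higher and 952 lower calls, 14% of them, against 30.7% of the probe sets with 1 symbol.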
